A study of Mus musculus with 11 samples.

Results

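The proteins through which a macrophage takes up lipopolysaccharide (LPS, a component of the outer membrane of Gram-negative bacteria), passes the signal on from Toll-like receptors (TLRs) and senses bacterial cell wall fragments in the cytosol were followed at the transcript level in 10 genes. They are the LPS co-receptors Cd14 and Ly96, the adaptors Myd88, Tirap, Ticam1 and Ticam2, the kinase family members Irak2 and Irak3, and the sensors Nod1 and Nod2. Each was taken from the probe sets annotated with its symbol alone, and each had 1 such probe set, so that all 10 genes were among the 18755 genes tested. All 10 lay above the array median in every array.

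The macrophages came from bone marrow of C57Bl/6 wild type animals, kept for 1 week with 5 ng/ml macrophage colony-stimulating factor, replated and used 24 hours later. They received 100 ng/ml LPS together with 10 µM prostaglandin E (PGE) for 1 hour (4 arrays), 100 ng/ml LPS alone for 1 hour (3 arrays), or nothing (4 arrays). No group with PGE alone was analysed here, and the kind of prostaglandin E is not named in the labels. The labels do not say whether replicates came from separate mice or cultures, so p-values here measure the spread between samples that may be technical replicates, and precision is limited by the number of arrays.

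As background, CD14 at the cell surface hands LPS to MD-2, the product of Ly96, which is bound to TLR4. From the plasma membrane, TLR4 signals through TIRAP and MyD88 to the IRAK kinases, TRAF6 and NF-kB; IRAK-M, the product of Irak3, restrains that route. From endosomes, TLR4 signals through TRAM (Ticam2) and TRIF (Ticam1) to TBK1, IRF3 and type I interferon. NOD1 and NOD2 recognise peptidoglycan fragments in the cytosol and signal through RIPK2. Prostaglandin E raises cyclic AMP in macrophages through some of its receptors.

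Values are log2 expression values, and 1 unit is a 2-fold change. Each change is a log2 fold change ± SE from 1 limma fit over all 11 arrays, and passing means a p under 0.05 after Benjamini-Hochberg adjustment over the 18755 genes. The 3 comparisons share arrays: LPS plus PGE and LPS are set against the same untreated arrays, and LPS plus PGE against the same LPS arrays. Levels are compared between groups for 1 gene, not between genes, because different probe sets have different brightness. In bulk RNA, fewer cells of a type and less RNA per cell cannot be told apart.

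The arrays held macrophage RNA by their markers: all 8 of 8 macrophage markers (Adgre1, Csf1r, Cd68, Itgam, Fcgr1, Mertk, Lyz2 and Mrc1) lay above the array median on average, and 0 passed in any comparison with limma (at an unadjusted p under 0.05, 2 were lower in LPS plus PGE than in untreated and 0 differed in the other comparisons). Their summed level ran from 91.6 to 92.2 in LPS plus PGE arrays, from 92.0 to 92.2 in LPS arrays and from 92.1 to 93.2 in untreated arrays. Of 9 neutrophil markers measured, 2 lay above the array median, and their summed level ran from 38.5 to 40.0 in LPS plus PGE arrays, from 38.5 to 41.2 in LPS arrays and from 38.7 to 38.9 in untreated arrays. Of 7 dendritic cell markers measured, 3 lay above the array median and 3 passed in some comparison; their summed level ran from 38.5 to 39.7 in LPS plus PGE arrays, from 38.5 to 39.4 in LPS arrays and from 37.6 to 38.1 in untreated arrays. Markers that passed in some comparison numbered 2 of 9 for neutrophils, 1 of 4 for B cells, 1 of 6 for T and NK cells, 0 of 5 for mast cells and 1 of 6 for fibroblasts and stroma. The part of other cells in the results below was not tested. Correlations across genes were 0.996 to 0.998 between arrays of 1 group and 0.980 to 0.993 between arrays of different groups.

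After LPS alone, 6 of the 10 genes rose (Cd14, Nod2, Ticam1, Irak2, Myd88 and Nod1), Tirap fell, and Ly96, Irak3 and Ticam2 did not pass. Of all genes, 13.2% were called in that comparison, 6.55% higher and 6.69% lower. After LPS plus PGE, 3 genes were above untreated (Cd14, Nod2 and Irak2), 4 were below it (Tirap, Nod1, Ticam1 and Ticam2), and 3 did not pass, where 31.7% of all genes were called, 13.8% higher and 17.9% lower. Between LPS plus PGE and LPS, Cd14 was higher, Ticam1, Nod1, Tirap and Myd88 were lower, and 5 did not pass, where 24.7% of all genes were called, 11.9% higher and 12.9% lower. Changes that passed and were at least 2-fold numbered 3 in LPS plus PGE against untreated (2.97% of all genes), 2 in LPS against untreated (1.93%) and 1 between the stimulated groups (0.714%). The arrays did not overlap between groups for 8 of the 10 genes in LPS plus PGE against untreated (35.1% of all genes), 8 in LPS against untreated (23.1%) and 5 between the stimulated groups (33.9%). The median change of the 10 genes was 0.30 for LPS against untreated (all genes, -0.01), -0.11 for LPS plus PGE against untreated (all genes, 0.02) and -0.10 for LPS plus PGE against LPS (all genes, 0.00). With the dimmest genes left out, the medians of the genes kept were -0.02, -0.07 and -0.08 in the same order.

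**Figure D1:**
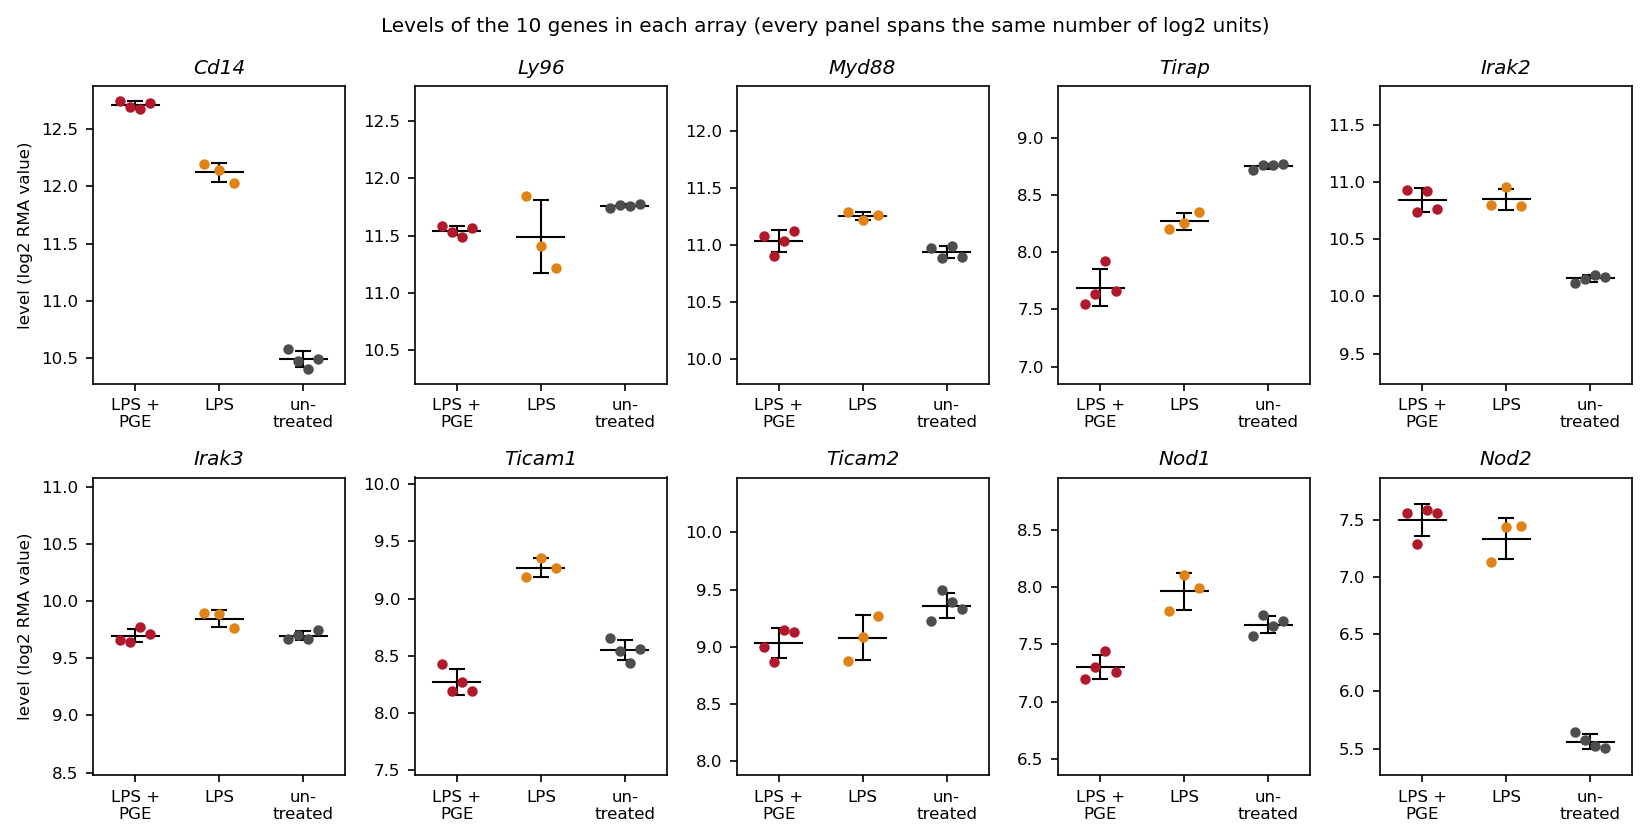
Log2 expression of each of the 10 genes (1 panel per gene) in every array, with LPS plus PGE (n = 4), LPS (n = 3) and untreated (n = 4) from left to right; points are arrays and bars the mean ± SD. Cd14 and Nod2 lay above untreated in all 7 stimulated arrays, and Ticam1 and Nod1 were highest in the LPS arrays.

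**Figure D2:**
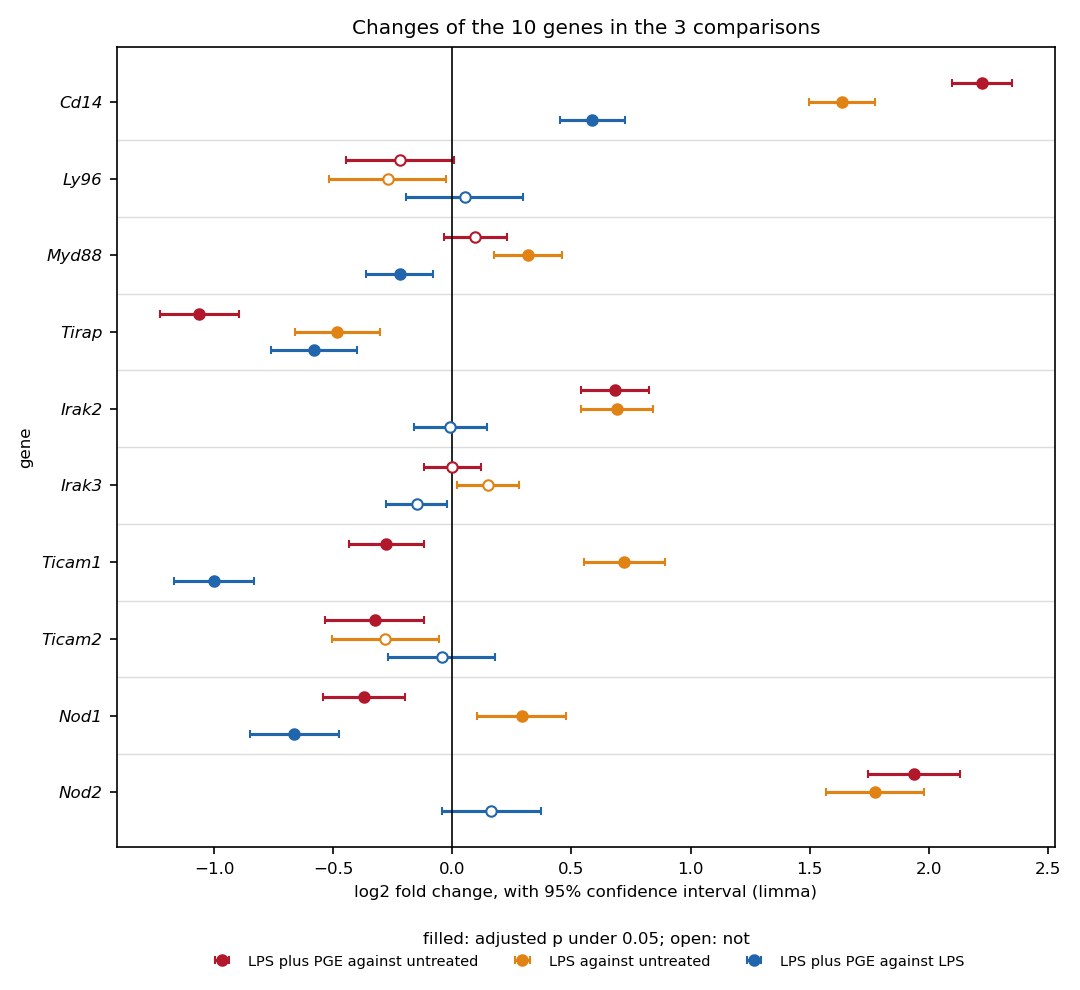
Log2 fold change of each gene in the 3 comparisons, with the 95% confidence interval of the limma fit; filled points passed at an adjusted p under 0.05 and open points did not. Ticam1 and Nod1 lie right of 0 for LPS against untreated and left of 0 in both comparisons of LPS plus PGE.

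Annotated starts on a single chromosome were left out when the sequences of the 10 genes were drawn. Upstream sequence was read for 7 of the 10 genes, as the 250 bases before each annotated start (RefSeq, build GRCm38.p6). Shown 5′ to 3′ are 4 of them: Nod2 and Irak2, which rose in both stimulated groups, Ticam1, which rose with LPS alone and was lower with LPS plus PGE, and Myd88, which held a motif match. They lie at chr8:88647097-88647346 on the + strand for Nod2, chr6:113638217-113638466 on the + strand for Irak2, chr17:56276768-56277017 on the - strand for Ticam1 and chr9:119340019-119340268 on the - strand for Myd88. Capitals mark the match.
Nod2: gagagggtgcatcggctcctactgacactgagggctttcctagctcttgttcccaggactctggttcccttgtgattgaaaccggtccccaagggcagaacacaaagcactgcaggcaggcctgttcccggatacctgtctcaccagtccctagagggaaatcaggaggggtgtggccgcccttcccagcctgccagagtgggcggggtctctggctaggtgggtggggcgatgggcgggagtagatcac
Irak2: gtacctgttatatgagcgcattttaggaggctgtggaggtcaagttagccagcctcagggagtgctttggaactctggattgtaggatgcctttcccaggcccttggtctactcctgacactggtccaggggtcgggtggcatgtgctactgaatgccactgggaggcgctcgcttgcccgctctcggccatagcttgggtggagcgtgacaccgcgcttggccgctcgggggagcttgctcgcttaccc
Ticam1: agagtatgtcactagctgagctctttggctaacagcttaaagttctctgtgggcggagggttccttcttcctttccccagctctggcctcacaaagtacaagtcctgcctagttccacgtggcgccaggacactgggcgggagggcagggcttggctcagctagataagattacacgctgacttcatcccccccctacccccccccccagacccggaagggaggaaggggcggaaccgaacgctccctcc
Myd88: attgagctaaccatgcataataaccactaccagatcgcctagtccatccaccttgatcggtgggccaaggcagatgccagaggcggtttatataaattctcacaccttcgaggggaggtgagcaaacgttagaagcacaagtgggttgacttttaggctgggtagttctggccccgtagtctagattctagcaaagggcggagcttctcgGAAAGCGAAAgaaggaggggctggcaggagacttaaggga
The motifs searched on both strands were the kappaB motif bound by NF-kB, the cyclic AMP response element TGACGTCA, its shortened form TGACG (which the full element contains), the AP-1 motif TGANTCA and the core of the interferon-stimulated response element (GAAA, any 2 bases, GAAA). Of the 10 starts of the 7 genes, only that of Myd88 held any of the 5, the interferon-stimulated core GAAAGCGAAA, from 40 to 31 bases before the start on the + strand of the gene. Over 32851 upstream regions of the same length, 7.25% held the kappaB motif, 1.55% the cyclic AMP response element, 17.8% its shortened form, 6.75% the AP-1 motif and 2.98% the interferon-stimulated core. A match describes letters in this window and no more. The upstream sequences of Cd14, Ly96 and Ticam2 were not searched for any of the motifs. The left-out chromosome need not be the reason for each of these genes.

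Cd14, the surface receptor that binds LPS and hands it to MD-2, had the highest level in the group with both agents. It was 12.75, 12.69, 12.68 and 12.73 in LPS plus PGE arrays, 12.19, 12.15 and 12.03 in LPS arrays, and 10.58, 10.48, 10.41 and 10.50 in untreated arrays. The 3 groups did not overlap, and the arrays of each group lay close together. Cd14 changed by 2.22 ± 0.06 in LPS plus PGE against untreated (4.67-fold, adjusted p = 3.61e-11) and by 1.64 ± 0.06 in LPS against untreated (3.11-fold, adjusted p = 2.52e-09). It was 1.50-fold higher in LPS plus PGE than in LPS (0.59 ± 0.06, adjusted p = 0.000109). Of the 5 genes that passed between those groups, it was the one that was higher with PGE. All 3 calls held under every setting tried except that a 2-fold threshold removed the last.

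Ly96, whose product MD-2 holds LPS in the TLR4 complex, was 11.58, 11.53, 11.49 and 11.57 in LPS plus PGE arrays, 11.84, 11.41 and 11.22 in LPS arrays, and 11.74, 11.76, 11.76 and 11.78 in untreated arrays. LPS replicate 1 lay above every untreated array, and the other 2 LPS arrays lay below every untreated array; the LPS plus PGE arrays all lay below the untreated ones. None of the comparisons passed: -0.22 ± 0.10 for LPS plus PGE against untreated (adjusted p = 0.127), -0.27 ± 0.11 for LPS against untreated (adjusted p = 0.148) and 0.05 ± 0.11 for LPS plus PGE against LPS (95% interval -0.19 to 0.30). Without LPS replicate 1, Ly96 passed as lower in LPS than in untreated (-0.45, adjusted p = 0.00136), as lower in LPS plus PGE than in untreated (adjusted p = 0.0124) and as higher in LPS plus PGE than in LPS (0.23, adjusted p = 0.0395). Ly96 also passed as lower in LPS plus PGE than in untreated when those 2 groups were fitted alone (adjusted p = 0.00698).

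Tlr4, the receptor both co-receptors serve, was lower in both stimulated groups. It changed by -0.66 ± 0.06 in LPS plus PGE against untreated (adjusted p = 6.28e-06), by -0.41 ± 0.07 in LPS against untreated (adjusted p = 0.00125) and by -0.25 ± 0.07 in LPS plus PGE against LPS (adjusted p = 0.018). The call against LPS was lost with quantile normalization (adjusted p = 0.106), with cyclic loess normalization (adjusted p = 0.204), and without LPS replicate 1 (adjusted p = 0.0529) or LPS replicate 3 (adjusted p = 0.0556). Within arrays, the log2 ratio of Cd14 to Ly96 was above its untreated mean by 2.44 ± 0.010 in LPS plus PGE arrays (SD, n = 4) and by 1.91 ± 0.25 in LPS arrays (SD, n = 3). The ratio of Cd14 to Tlr4 was above its untreated mean by 2.89 ± 0.12 in LPS plus PGE arrays (SD, n = 4) and by 2.04 ± 0.11 in LPS arrays (SD, n = 3).

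Tirap, the bridging adaptor that brings MyD88 to TLR4 at the plasma membrane, fell in both stimulated groups. It was 7.55, 7.63, 7.92 and 7.66 in LPS plus PGE arrays, 8.20, 8.26 and 8.35 in LPS arrays, and 8.72, 8.76, 8.76 and 8.77 in untreated arrays. The groups did not overlap. Tirap changed by -1.06 ± 0.08 in LPS plus PGE against untreated, to 0.479 of the untreated level (adjusted p = 5.8e-07). In LPS against untreated it changed by -0.48 ± 0.08 (adjusted p = 0.0018), and in LPS plus PGE against LPS by -0.58 ± 0.08 (adjusted p = 0.000788).

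Myd88, the adaptor shared by most TLRs and the interleukin-1 receptor family, was 11.08, 10.90, 11.04 and 11.12 in LPS plus PGE arrays, 11.29, 11.22 and 11.26 in LPS arrays, and 10.97, 10.89, 10.99 and 10.90 in untreated arrays. The LPS arrays lay above all others, and the LPS plus PGE and untreated arrays overlapped. Myd88 rose with LPS (0.32 ± 0.06, 1.25-fold, adjusted p = 0.00611). Of the upstream sequences searched, that of Myd88 was the one with the interferon-stimulated core, and a link between that match and the rise was not tested. Myd88 was lower in LPS plus PGE than in LPS (-0.22 ± 0.06, adjusted p = 0.0294), a call that was lost with cyclic loess normalization (adjusted p = 0.0889), with the 2 groups fitted alone (adjusted p = 0.0615), and without LPS replicate 1 (0.0779) or 3 (0.0719) or LPS plus PGE replicate 2 (0.0692) or 3 (0.0581). LPS plus PGE against untreated gave 0.10 ± 0.06 (adjusted p = 0.233), which passed after all arrays were set to equal medians (0.18, adjusted p = 0.0389).

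Irak2, a kinase family member that sustains signalling downstream of MyD88, rose in both stimulated groups. It was 10.93, 10.73, 10.92 and 10.77 in LPS plus PGE arrays, 10.80, 10.96 and 10.79 in LPS arrays, and 10.12, 10.15, 10.19 and 10.17 in untreated arrays. All 7 stimulated arrays lay above all untreated ones, and the stimulated groups overlapped. The change was 0.68 ± 0.06 in LPS plus PGE against untreated (1.60-fold, adjusted p = 7.99e-06) and 0.69 ± 0.07 in LPS against untreated (1.61-fold, adjusted p = 2.48e-05). Between LPS plus PGE and LPS it was -0.01 ± 0.07, with a 95% interval from -0.16 to 0.14. Irak3, whose product IRAK-M restrains the IRAK route, was 9.66, 9.65, 9.77 and 9.72 in LPS plus PGE arrays, 9.89, 9.88 and 9.77 in LPS arrays, and 9.67, 9.70, 9.67 and 9.75 in untreated arrays. The LPS arrays lay just above the untreated ones, and the LPS plus PGE arrays overlapped both. It passed in none of the comparisons: 0.00 ± 0.05 for LPS plus PGE against untreated, 0.15 ± 0.06 for LPS against untreated (adjusted p = 0.128, although the arrays did not overlap) and -0.15 ± 0.06 for LPS plus PGE against LPS (adjusted p = 0.0836). With equal array medians Irak3 passed as higher in LPS than in untreated (0.26, adjusted p = 0.0137), and with a trended and robust variance as lower in LPS plus PGE than in LPS (adjusted p = 0.0411).

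Ticam1, which encodes TRIF, the adaptor that leads to TBK1 and interferon, rose with LPS alone and was lower with LPS plus PGE. It was 8.43, 8.19, 8.27 and 8.19 in LPS plus PGE arrays, 9.19, 9.36 and 9.27 in LPS arrays, and 8.65, 8.54, 8.44 and 8.56 in untreated arrays. The groups did not overlap, with LPS plus PGE lowest and LPS highest, although LPS plus PGE replicate 1 and untreated replicate 3 nearly met. Ticam1 rose with LPS (0.72 ± 0.08, 1.65-fold, adjusted p = 4.15e-05) and in LPS plus PGE against LPS it fell by 1.00 ± 0.08 on the log2 scale, a 2-fold difference (adjusted p = 7.3e-06). LPS plus PGE was below untreated by a smaller amount (-0.28 ± 0.07, adjusted p = 0.0123), and that call was lost with cyclic loess normalization (-0.14, adjusted p = 0.212) and with equal array medians (-0.20, adjusted p = 0.0606). None of the 5 motifs was in its upstream sequence printed above.

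Ticam2, which encodes TRAM, the bridging adaptor between TLR4 and TRIF, ran from 8.87 to 9.14 in LPS plus PGE arrays, from 8.88 to 9.27 in LPS arrays and from 9.23 to 9.49 in untreated arrays. The LPS plus PGE arrays all lay below the untreated ones, and the LPS arrays overlapped both groups. It was lower in LPS plus PGE than in untreated (-0.33 ± 0.09, adjusted p = 0.0219), a call that was lost with quantile normalization (adjusted p = 0.0573), cyclic loess normalization (0.165), equal array medians (0.067), and without untreated replicate 2 (0.0585) or 3 (0.0509) or LPS plus PGE replicate 1 (0.0544) or 2 (0.0635). LPS against untreated gave -0.28 ± 0.10 (adjusted p = 0.0991), which passed with a trended and robust variance (adjusted p = 0.0345) and without LPS replicate 3 (-0.38, adjusted p = 0.0391). LPS plus PGE against LPS gave -0.04 ± 0.10, with a 95% interval from -0.27 to 0.18. Within arrays, the log2 ratio of Ticam1 to Ticam2 stood 0.05 ± 0.17 above its untreated mean in LPS plus PGE arrays (SD, n = 4) and 1.00 ± 0.17 above it in LPS arrays (SD, n = 3).

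**Figure D3:**
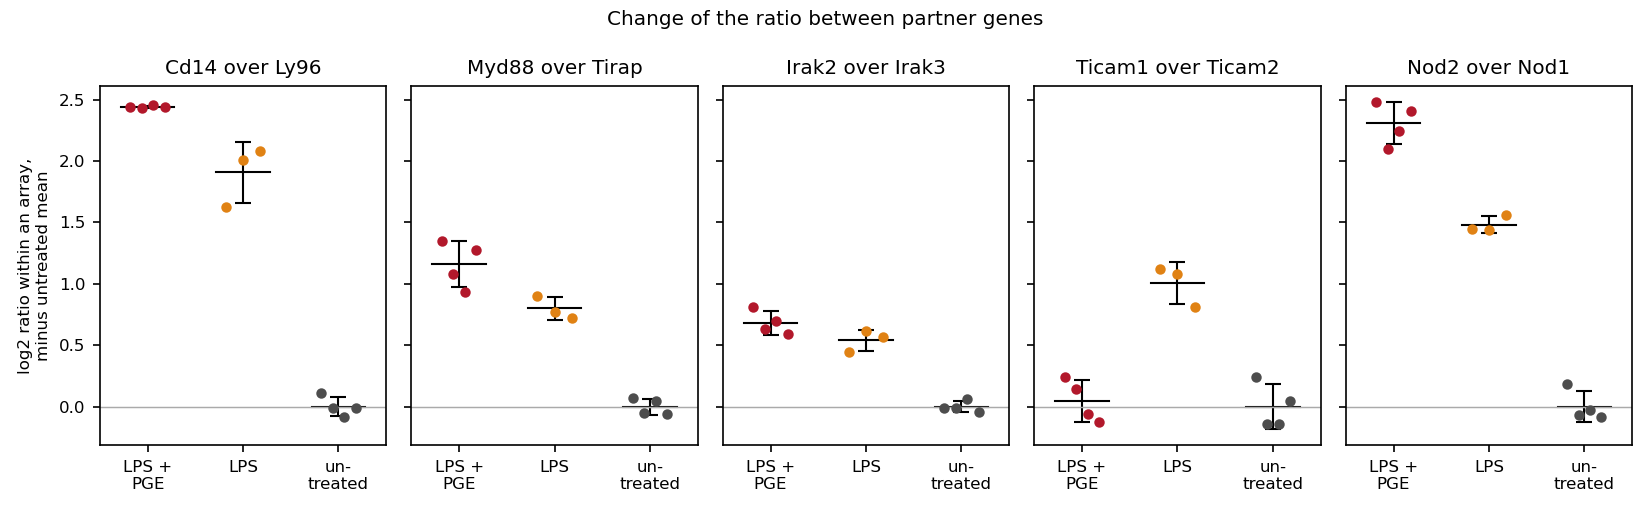
Within-array log2 ratio of each of 5 gene pairs minus its untreated mean, with LPS plus PGE, LPS and untreated arrays side by side; points are arrays and bars the mean ± SD. The ratio of Ticam1 to Ticam2 lay between 0.81 and 1.12 in LPS arrays, above the -0.13 to 0.24 of LPS plus PGE arrays, and the ratio of Nod2 to Nod1 was highest in LPS plus PGE arrays.

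Nod2, the sensor of muramyl dipeptide, had the largest rise of the 10 genes in LPS against untreated. It was 7.56, 7.29, 7.58 and 7.56 in LPS plus PGE arrays, 7.13, 7.44 and 7.44 in LPS arrays, and 5.65, 5.57, 5.52 and 5.51 in untreated arrays. All 7 stimulated arrays lay above all untreated arrays, and the 2 stimulated groups overlapped. Nod2 changed by 1.94 ± 0.09 in LPS plus PGE against untreated (3.83-fold, adjusted p = 8.35e-09) and by 1.77 ± 0.09 in LPS against untreated (3.42-fold, adjusted p = 6.58e-08). Between LPS plus PGE and LPS it was 0.16 ± 0.09 (adjusted p = 0.221, 95% interval -0.04 to 0.37).

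Nod1, the sensor of peptidoglycan fragments that carry diaminopimelic acid, was 7.19, 7.30, 7.45 and 7.26 in LPS plus PGE arrays, 7.79, 8.11 and 7.99 in LPS arrays, and 7.58, 7.75, 7.66 and 7.70 in untreated arrays. The groups did not overlap, with LPS plus PGE lowest. Nod1 was at 0.632 of the LPS level with LPS plus PGE (-0.66 ± 0.09, adjusted p = 0.000436) and below untreated (-0.37 ± 0.08, adjusted p = 0.00413); the second call was lost with cyclic loess normalization (-0.22, adjusted p = 0.075). The rise with LPS alone, 0.29 ± 0.09 (adjusted p = 0.0432), was near the threshold and was lost with array weights (0.084), with the 2 groups fitted alone (0.0796), over all probe sets (0.0655), without any 1 of the 4 untreated arrays (0.0536 to 0.101), without LPS replicate 2 (0.162) or 3 (0.11) and without LPS plus PGE replicate 2 (0.0609) or 4 (0.0568), all as adjusted p. Within arrays, the log2 ratio of Nod2 to Nod1 stood 2.31 ± 0.17 above its untreated mean in LPS plus PGE arrays (SD, n = 4) and 1.48 ± 0.069 above it in LPS arrays (SD, n = 3).

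Other genes of these pathways were read from 5 lists with 56 of 61 genes measured (Irak1, Irak4, Traf3, Ripk1 and Ripk2 were not analysed here). Of the 56, 8 rose and 17 fell in LPS plus PGE against untreated (13.8% and 17.9% of all genes), 12 rose and 3 fell in LPS against untreated (6.55% and 6.69%), and 3 rose and 17 fell in LPS plus PGE against LPS (11.9% and 12.9%). With the dimmest genes left out, 9 listed genes rose and 21 fell in LPS plus PGE against untreated, beside 1759 and 3743 of the genes kept. LPS against untreated then gave 13 and 3, beside 1421 and 1484 of the genes kept. LPS plus PGE against LPS then gave 3 and 20, beside 1260 and 2828 of the genes kept. That fit kept only genes with a mean at or above the lower tertile boundary (4.31), so fewer than 56 listed genes were in it, and Tril was not. The number of genes kept is not given here, so these counts stand without shares. The balance in LPS plus PGE against untreated turned over with the scaling, to 12 risen and 5 fallen with cyclic loess normalization, 11 and 7 with equal array medians and 10 and 7 with quantile normalization. In LPS plus PGE against LPS the count became 3 risen and 3 fallen with cyclic loess (all genes, 1085 and 1038). It was 3 and 4 with quantile normalization (all genes, 1203 and 1155). Without LPS replicate 2 or 3 or LPS plus PGE replicate 1, 3 or 4, 7 to 12 listed genes passed, beside 2945 to 4047 of all genes. The lowest count was without LPS replicate 3 (2 risen and 5 fallen, beside 1533 and 1412 of all genes). The counts of single lists are small. Those of the main fit stand beside 31.7%, 13.2% and 24.7% of all genes called in LPS plus PGE against untreated, in LPS against untreated and between the stimulated groups. For the list counts at an unadjusted p under 0.05 below, the share of all genes was not counted. Of the 37 changes that passed for the named genes of these lists, 21 kept their call under the 21 settings other than the 2-fold threshold.

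In the MyD88 branch (14 of 16 measured), 3 rose and 4 fell in LPS plus PGE against untreated, 4 rose and 1 fell in LPS against untreated, and 0 rose and 3 fell in LPS plus PGE against LPS. Peli1, a ubiquitin ligase that acts with the IRAK kinases, rose by 0.71 ± 0.10 in LPS plus PGE and by 0.79 ± 0.10 in LPS, both against untreated. Tab1, a binding partner of the kinase TAK1, fell by 0.70 ± 0.07 in LPS plus PGE and by 0.49 ± 0.08 in LPS. Traf6, the ubiquitin ligase downstream of the IRAK kinases, rose with LPS (0.42 ± 0.05, adjusted p = 0.000225). At an unadjusted p under 0.05, 0 genes of this branch were higher and 7 were lower in LPS plus PGE than in LPS. No share of all genes at that threshold stands beside this count. The 3 of 14 called against LPS (24.7% of all genes) were falls of Ecsit, Btk and Traf6; they numbered 0 with quantile and with cyclic loess normalization and without LPS replicate 3 or LPS plus PGE replicate 1, and 1 without LPS replicate 1 or LPS plus PGE replicate 3 or 4. In LPS plus PGE against untreated (31.7% of all genes called), 3 rose and 1 fell with quantile normalization, 4 and 1 with cyclic loess and 3 and 2 with equal array medians.

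In the TRIF branch (9 of 11 measured), 1 rose and 2 fell in LPS plus PGE against untreated, 4 rose and 1 fell in LPS against untreated, and 0 rose and 5 fell in LPS plus PGE against LPS. Ikbke, a kinase related to TBK1, rose with LPS (0.38 ± 0.08) and was lower in LPS plus PGE than in LPS (-0.38 ± 0.08, adjusted p = 0.00555). Fadd, an adaptor of cell death signalling that TRIF can engage, was lower in LPS plus PGE than in LPS (-0.43 ± 0.08, adjusted p = 0.0039). Tank, a scaffold of TBK1, rose with LPS by 0.59 ± 0.09 and was lower in LPS plus PGE than in LPS by 0.29 on the log2 scale, with overlapping arrays and a call that was lost in 9 of 21 settings. At an unadjusted p under 0.05, 0 genes of this branch were higher and 6 were lower in LPS plus PGE than in LPS. No share of all genes at that threshold stands beside this count. With quantile and with cyclic loess normalization, 2 genes of this branch fell in LPS plus PGE against LPS (24.7% of all genes called), and 2 or 3 fell without LPS replicate 3 or LPS plus PGE replicate 2, 3 or 4. In LPS plus PGE against untreated, the split was 3 risen and 2 fallen with quantile, cyclic loess and equal-median normalization. Beside it, all genes split into 2596 and 2206, 2129 and 1788, and 4499 and 2119 in that order. In LPS against untreated, 3 passed in all without LPS replicate 2 or 3 or untreated replicate 2, 3 or 4, beside 1925 to 2152 of all genes.

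In the NOD branch (12 of 13 measured), 4 rose and 5 fell in LPS plus PGE against untreated, 4 rose and 0 fell in LPS against untreated, and 3 rose and 3 fell in LPS plus PGE against LPS. At an unadjusted p under 0.05 with limma, 5 genes of this branch were higher and 3 were lower in LPS than in untreated, with no share of all genes counted at that threshold. The 4 rises with LPS (13.2% of all genes called) became 2 with array weights, over all probe sets, with the 2 groups fitted alone, and without untreated replicate 2, 3 or 4, LPS replicate 1 or LPS plus PGE replicate 1, 2 or 3. The 5 falls against untreated (17.9% of all genes fell in the main fit) became 1 with cyclic loess and 2 with quantile normalization or equal array medians. Falls over all genes then numbered 1788, 2206 and 2119. The 6 calls against LPS (24.7% of all genes called in the main fit) became 3 without LPS replicate 2 or LPS plus PGE replicate 4, beside 4047 and 3791 of all genes. Slc15a2, a peptide transporter that can carry bacterial muropeptides, changed by 1.96 ± 0.16 in LPS plus PGE against untreated and by 1.54 ± 0.17 in LPS plus PGE against LPS (adjusted p = 0.000163); LPS against untreated gave 0.42 ± 0.17 (adjusted p = 0.14). Slc15a3, a transporter of the endolysosome, rose by 0.94 ± 0.06 in LPS plus PGE against untreated, by 0.43 ± 0.06 in LPS against untreated and by 0.51 ± 0.06 in LPS plus PGE against LPS. Slc15a4, a related endolysosomal transporter, was lower in LPS plus PGE than in LPS (-0.31 ± 0.07, adjusted p = 0.00834). Birc3, a ubiquitin ligase of the NOD complex, rose by 1.41 ± 0.06 in LPS plus PGE and by 1.20 ± 0.06 in LPS, both against untreated.

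The LPS capture and receptor list (8 of 8 measured) held 0 risen genes in each comparison with limma, and 2 fallen genes in LPS plus PGE against untreated and 1 in each of the other comparisons; 0 were higher at an unadjusted p under 0.05. Tlr4 was the fallen gene in each, with Lbp, which carries LPS to CD14, also lower in LPS plus PGE than in untreated (-0.31 ± 0.09, adjusted p = 0.0209, a call that was lost with quantile, cyclic loess and equal-median normalization and without untreated replicate 2 or 3). The background of the main fit was 31.7% of all genes called in LPS plus PGE against untreated, 13.2% in LPS against untreated and 24.7% in LPS plus PGE against LPS. The negative regulators listed were Tollip, Sarm1, Sigirr, Inpp5d, Tax1bp1, Trafd1, Rnf216, Ptpn6, Ptpn11, Nlrx1, Nlrc3, Nlrc5 and Dok3. They are a selection that leaves out other inhibitors, Irak3 among them, so the counts say nothing on inhibitors outside it. Of these 13 negative regulators, 0 rose in any comparison in the limma fit of the deposited values, 4 fell in LPS plus PGE against untreated, 0 fell in LPS against untreated and 5 fell in LPS plus PGE against LPS. Nlrc3, an inhibitor of NF-kB signalling in macrophages, changed by -0.41 ± 0.10 in LPS plus PGE against LPS, and Ptpn11, a phosphatase, by -0.26 ± 0.06. At an unadjusted p under 0.05 with limma, 1 negative regulator was higher and 0 were lower in LPS than in untreated. In the other comparisons 0 were higher, while 6 were lower in LPS plus PGE than in untreated and 5 lower than in LPS. The share of all genes at that threshold was not counted. The 5 falls numbered 0 with quantile and with cyclic loess normalization and without LPS replicate 3, and 2 or 3 without LPS replicate 2 or any 1 LPS plus PGE array. The 4 falls against untreated became 1 risen and 0 fallen with cyclic loess and with equal array medians, 1 fallen with quantile normalization, and 2 without LPS plus PGE replicate 1 or untreated replicate 3. In LPS against untreated, 1 rose with cyclic loess, a trended and robust variance, equal array medians or the dimmest genes left out, and without LPS replicate 1 or untreated replicate 3.

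**Figure D4:**
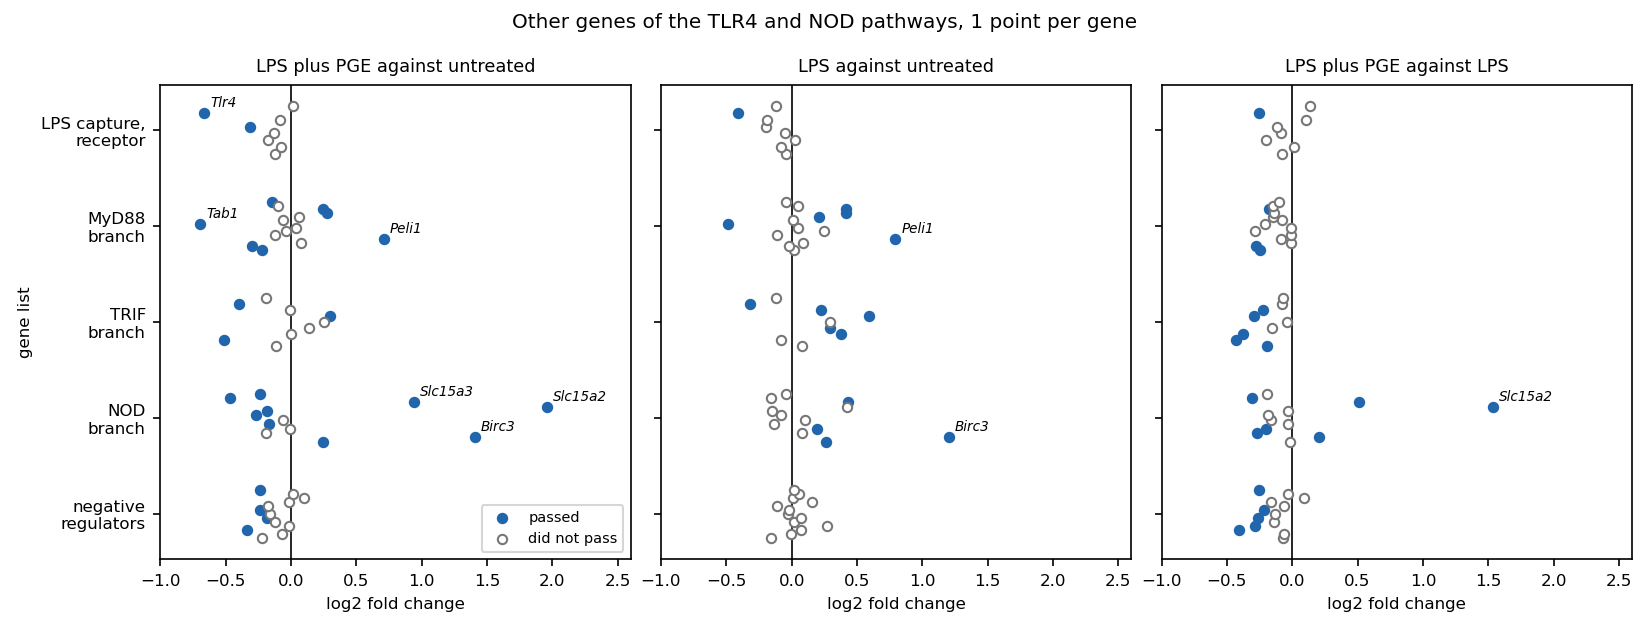
Log2 fold change of the measured genes of the 5 pathway lists, with 1 panel per comparison and 1 band of points per list; filled points passed and open points did not. Slc15a2 and Birc3 are the points furthest right for LPS plus PGE against untreated.

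For the 4 genes with a change of at least 1 log2 unit in a comparison they passed (Cd14, Nod2, Tirap and Ticam1), the most similar genes over the 11 arrays were found by the root mean square difference after each gene was centred on its untreated mean, among 18003 candidates. For Cd14 they were Plaur (0.069), Osgin2 (0.098) and Cebpb (0.105). For Nod2 they were Zfp131 (0.157), Rgs1 (0.182) and Gch1 (0.185). For Tirap they were Luc7l3 (0.106), Pdcd11 (0.113) and Zfp788 (0.118), and for Ticam1 Srfbp1 (0.121), H2-K2 (0.129) and Sap30 (0.139). Similarity was ranked by these differences alone, and no test was made.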

How the data were processed

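Transcript levels were measured with Affymetrix mouse gene 1.1 ST arrays from 250 ng of total RNA in 11 samples of 3 groups. Of 12 arrays made, the authors left out 1 LPS array for quality. The values are the log2 values the authors deposited. The log2 scale was inferred from RMA (background correction, normalization and summary), which the submitters' processing notes name, and from values between 1.20 and 13.81. Partek, R 2.13.1 and Affymetrix Power Tools are listed there too, with no roles. The sources used here do not give the genome build of the probe sets.

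Of 35309 probe sets, 21143 carried 1 gene symbol, 1870 several and 12296 none. Per gene, the probe set of highest mean over the arrays was used, which gave 18755 genes. A group-means model was fitted with limma 3.58.1 in R 4.3.3 (8 residual and 3.77 prior degrees of freedom), with 3 two-sided contrasts and Benjamini-Hochberg adjustment over all genes. Figures and sequence searches used Python 3.11.15 and matplotlib 3.10.9. The fit was also run on simulated arrays with independent noise, which hold no deviations shared between arrays and so cannot speak to them.

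The 10 genes, the 5 pathway lists and the marker lists were chosen with earlier results of these data known. Chosen to be named were the 10 genes, Tlr4, up to 3 passing genes per list and comparison with the largest absolute change, and the 3 most similar genes for each of the 10 with an absolute change of at least 1, leaving out predicted genes. Values are not given above for Birc2, Tbkbp1, Rnf216, Trafd1, Nlrc5, Btk and Ecsit. Birc2 passed as higher in LPS than in untreated, and Tbkbp1 as lower in both stimulated groups. Rnf216 and Trafd1 passed as lower in LPS plus PGE than in untreated, and Nlrc5, Btk and Ecsit as lower than in LPS.

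Nothing in the labels ties arrays of the same replicate number to each other, so the fit was unpaired. The alternatives were quantile, cyclic loess and equal-median normalization, a trended and robust variance, array weights, the 2 groups fitted alone, the dimmest genes left out (mean below the lower tertile boundary), the averaged probe sets of each gene, adjustment over all probe sets, a 2-fold threshold, a block for the replicate number and fits that leave out 1 array each.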

Additional observations from a re-analysis of the deposited data

Results flagged for a closer look

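In the 4-array groups, 31 genes (the 10 genes, Tlr4 and named genes of the pathway lists) gave 62 groups, and in 4 of them 1 array stood far from the other 3; chance gives about 1 in 20. Nod2 was 7.29 in LPS plus PGE replicate 2, against 7.56 to 7.58 in the other LPS plus PGE arrays, and that array still lay above every untreated array. Ikbke was 9.19 in LPS plus PGE replicate 3, where the other arrays of the group were at 9.10. Nlrc3 was 6.54 in LPS plus PGE replicate 3, where the others were at 6.47 to 6.48. Tab1 was 8.37 in untreated replicate 3, where the others were at 8.28 to 8.29.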

How the results depend on the processing

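Of the 19 calls for the 10 genes, 14 held under 21 settings (10 alternatives and 11 left-out arrays), with the 2-fold threshold not among them. None of the 30 results turned to a call in the other direction. The calls that were lost or gained stand beside their results above. The number of the 10 genes called was 6 to 8, 6 to 8 and 4 to 5 when single arrays were left out, for LPS plus PGE against untreated, LPS against untreated and the stimulated groups against each other. Over all genes, leaving out 1 array gave 4701 to 6143, 1925 to 2364 and 2945 to 4455 genes in these comparisons, where 5946, 2483 and 4641 passed with all arrays; the lowest of the last range was without LPS replicate 3.

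With a 2-fold threshold, LPS against untreated gave 362 genes in place of 2483 and 2 of the 10 genes in place of 7; LPS plus PGE against untreated gave 557 in place of 5946 and 3 in place of 7; LPS plus PGE against LPS gave 134 in place of 4641 and 1 in place of 5. With cyclic loess normalization, LPS plus PGE against untreated gave 3917 genes and 4 of the 10 (3 higher, 1 lower), and LPS plus PGE against LPS 2123 genes; quantile normalization gave 2358 genes in LPS plus PGE against LPS. Equal array medians shifted the median change of all genes in LPS against untreated to 0.10 (-0.01 as deposited), and the split to 2747 higher and 613 lower (1229 and 1254 as deposited); in LPS plus PGE against untreated to 4499 and 2119 (2587 and 3359), and in LPS plus PGE against LPS to 1804 and 3004 (2225 and 2416). Without the dimmest genes, the genes kept split into 1759 and 3743 in LPS plus PGE against untreated, and 1260 and 2828 in LPS plus PGE against LPS. The causes were not tested.

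With the replicate number as a block, 6124 genes passed in LPS plus PGE against untreated, 2454 in LPS against untreated and 4698 between the stimulated groups, and 7, 7 and 5 of the 10 genes, with no call of the 10 changed. In the 5 pathway lists the block gave 9 risen and 17 fallen, 10 and 3, and 2 and 11 in those comparisons; between the stimulated groups the MyD88 branch then held 1 fall in place of 3, and Btk, Traf6, Tank and Nlrc5 did not pass, nor did Birc2 in LPS against untreated. Deviations from the group means correlated at -0.02 to 0.21 between same-numbered arrays (over 0.1 in 7 of 10 pairs) and at -0.14 to 0.09 between other arrays (over 0.1 in 0 of 30 pairs). All 11 of 11 arrays correlated best with an array of their own number, so arrays of the same number shared deviations. That comes from the data and not from the design, and the labels do not say what the numbers stand for. The p-values given above for the main fit do not take it into account. The number of arrays limits what small changes can be called.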
